A study of Mus musculus with 6 samples.

Results

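The 52 genes described here encode the TGF-beta, activin and BMP ligands, their receptors, SMADs, antagonists and inhibitors of DNA binding (ID proteins), and all of them were found by symbol among the 52636 genes of the deposited expression table. RNA was sequenced from cells sorted from subcutaneous tumors of MC38, a mouse colon adenocarcinoma line, grown in female mice 6 to 10 weeks old. All 6 libraries came from the M1E5 derivative of the line. The 3 control libraries had the genotype M1E5-Thy1.1, and the other 3 were labelled MC-38 M1E5-Zfx-KO-Thy1.2, in which Zfx, an X-linked zinc finger transcription factor, had been targeted with CRISPR ribonucleoprotein complexes. No treatment was given, and the form of the surface protein Thy1 differed between the groups together with the targeting. The series title speaks of knockout clones, while the labels do not say how many clones or animals gave the 3 libraries of a group, so each p-value reflects library-to-library spread, which may be only technical.

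Ligands of this family are secreted dimers that bring type II and type I receptor kinases together. TGF-beta and activin receptors then phosphorylate SMAD2 and SMAD3, BMP receptors phosphorylate SMAD1, SMAD5 and SMAD9, and both kinds enter the nucleus with the shared partner SMAD4. Secreted antagonists bind the ligands outside the cell, and the inhibitory SMADs, the decoy receptor BAMBI and the SKI proteins restrain the signal inside it. In tumors the pathway is known for effects on growth arrest, matrix production and the vasculature.

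The labels' tissue was checked against defining genes first. Of 10 epithelial markers Cdx2 had 0 reads in all 6 libraries, Epcam had 1 read in the controls and 3 in the Zfx-KO-labelled libraries, and the list summed to 0.983 to 1.82 CPM (reads scaled to a common library total) in the controls and 15.8 to 22.3 in the Zfx-KO-labelled libraries. Cdh1, with 180 control reads and 216 with the Zfx-KO label (limma adjusted p = 0.621), made up most of the control sum, and Krt8 had 5 and 2571 reads, both chosen after their values were seen. Of 10 fibroblast markers 8 were higher and 2 (Pdgfra and Pdpn) lower, and they summed to 8329 to 9924 and 14342 to 17382 CPM. That list includes Thy1, whose form differed between the groups, so its level may not reflect fibroblasts here. Of 12 endothelial markers 11 were higher and 1 (Ramp2) lower in the Zfx-KO-labelled libraries, with sums of 125 to 155 against 28.0 to 37.3 CPM, and all 10 pericyte and smooth muscle markers were higher, with 576 to 748 against 311 to 360 CPM. Of 11 leukocyte markers 3 were higher and 0 lower, and their sums of 31.7 to 127 and 66.2 to 153 CPM overlapped. Beside these counts, 24.9% of all 20094 genes tested were higher and 19.5% lower (limma adjusted p under 0.05). The leukocyte rises, 3 of 10 tested, were near that share. Abcc9, on the pericyte and smooth muscle list, had 0 control reads, so it had to differ to be tested. Zfx itself stood at 5.68, 5.88 and 5.46 log2 CPM in control replicates 1 to 3 and at 6.30, 6.41 and 6.22 in the Zfx-KO-labelled libraries, higher by 0.64 (SE 0.10, limma adjusted p = 0.000473), so every direction given here refers to the label. Depth was 42392848 to 42962578 reads in the controls and 37763096 to 65050908 in the Zfx-KO-labelled libraries.

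Most of the pathway differed between the groups, and the members moved in both directions. With the Zfx-KO label 30 of the 52 genes were higher and 13 lower (limma with an intensity trend, Benjamini-Hochberg adjusted p under 0.05 over all genes tested), where 24.9% of all 20094 genes tested were higher and 19.5% lower. The groups did not overlap in 43 of the 52 genes, against 54.1% of all genes tested. The filter on low values was passed by 44 members on the values of their lower group alone. The other 8 did not pass on that group alone, and their calls are no support. Of these, Bmp4, Bmp5, Gdf6, Gdf10, Fst and Smad9 had to differ to be tested. Chrdl1 and Nog had lower-group means of -4.35 and -4.47 log2 CPM, which met the limit on the mean, but a library of that group had 0 reads. Among the 44, 23 were higher and 12 lower, and 12 rose and 1 fell by at least 2-fold. Among the 36 members with a mean of at least 0 log2 CPM, 18 were higher and 12 lower, with a median log2 difference of 0.17, while 26.1% and 28.6% of the 12810 genes tested at that level were higher and lower, with a median of 0.00. Over all 52, changes of at least 2-fold numbered 19 up and 2 down (Grem1 and Nog), against 11.6% and 3.65% of all genes tested. Scaling matters for the small differences: equal medians lowered each log2 difference by 0.21 and left 24 members higher and 15 lower, and without the filter on low values 19 were higher and 6 lower.

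**Figure D1:**
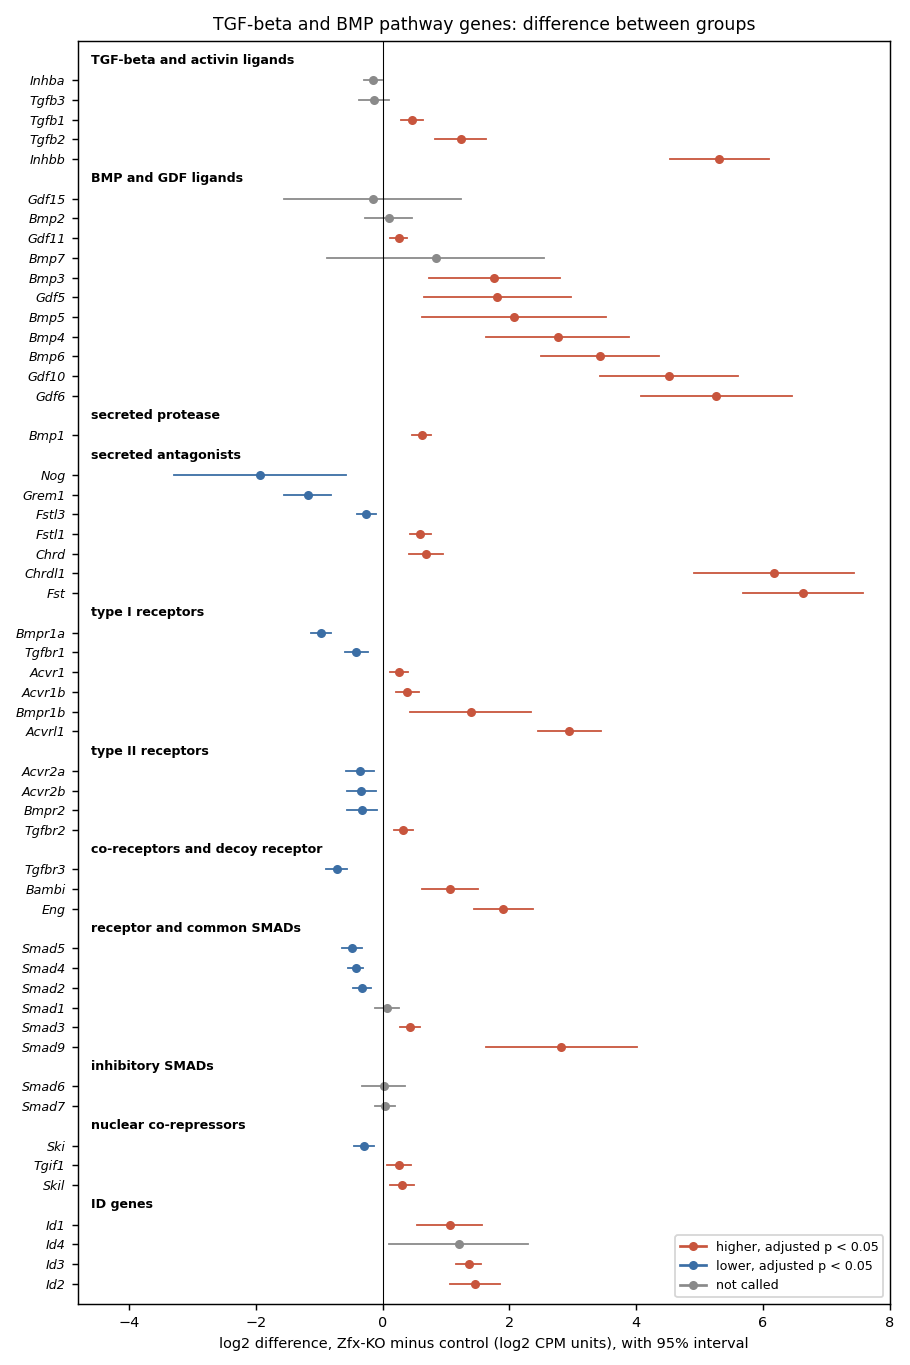
Log2 difference between the Zfx-KO-labelled libraries and the controls for each of the 52 genes, grouped by role, with points for limma estimates and bars for 95% intervals. Fst, at 6.63, lies furthest to the right, and the intervals of scarce genes such as Nog, Gdf15 and Bmp7 are wide.

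**Figure D2:**
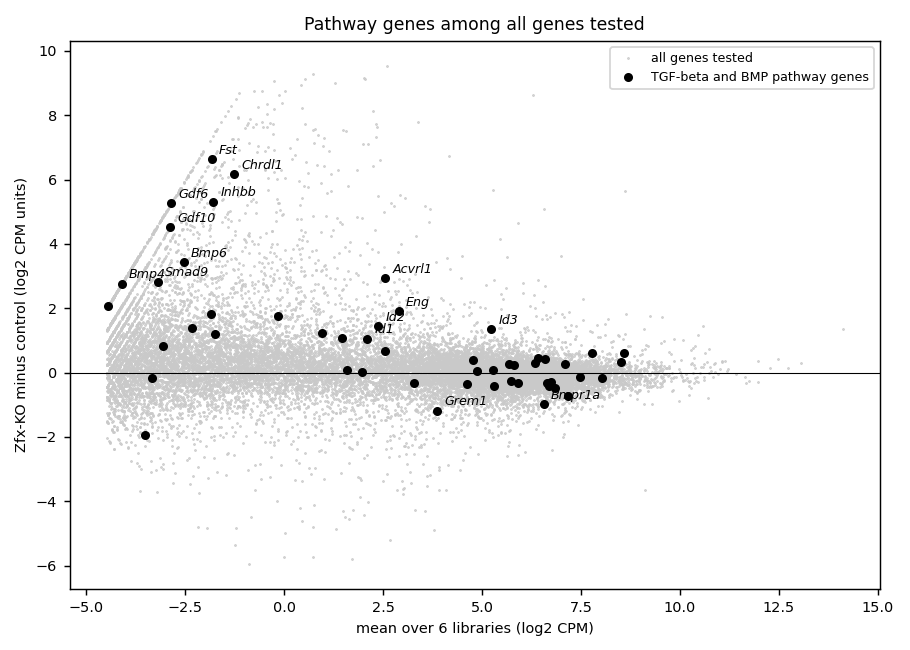
Log2 difference (vertical axis) against the mean over the 6 libraries in log2 CPM (horizontal axis) for all genes tested (grey) and the 52 pathway genes (black). Fst, Chrdl1, Inhbb, Gdf6 and Gdf10 lie highest of the pathway genes, with means below 0 log2 CPM, and Acvrl1 rose by 2.94 at a mean above 0.

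Tgfb1 and Tgfb3 were the abundant TGF-beta ligands, and Tgfb1 rose while Tgfb3 did not pass the test. Per length of exon, Tgfb3 stood at 55.6 ± 6.8 RPKM (CPM per kilobase) in the controls (SD, n = 3), Tgfb1 at 33.7 ± 3.8 and Tgfb2 at 0.240 ± 0.012. Tgfb1, which encodes the most widely expressed TGF-beta (chr7:25687002-25705077, GRCm38), stood at 6.17, 6.04 and 6.36 log2 CPM in the controls and at 6.64, 6.69 and 6.63 in the Zfx-KO-labelled libraries. All 3 of the latter lay above all 3 controls, and Tgfb1 rose by 0.46 (SE 0.08, limma adjusted p = 0.000866). Tgfb2 stood at 0.27, 0.38 and 0.39 log2 CPM in the controls and at 1.40, 1.73 and 1.59 in the Zfx-KO-labelled libraries, a rise of 1.23 (SE 0.18, limma adjusted p = 0.000345) at a low level. Tgfb3 stood at 7.59, 7.35 and 7.70 log2 CPM in the controls and at 7.21, 7.55 and 7.50 in the Zfx-KO-labelled libraries. These ranges overlapped, and the log2 difference of -0.13 (95% interval -0.36 to 0.11) did not pass the test (limma adjusted p = 0.363), although with equal medians it was -0.34 and passed (0.0267).

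Activin A and activin B are made from the subunits encoded by Inhba and Inhbb. Inhba stood at 8.11 ± 0.10 log2 CPM in the controls and at 7.96 ± 0.05 in the Zfx-KO-labelled libraries (SD, n = 3 each), without overlap, and the log2 difference of -0.16 did not pass (limma adjusted p = 0.0767), while it was -0.37 with equal medians (0.000612). Inhbb (chr1:119415465-119422248) had 1 read in each control and 257 reads in the Zfx-KO-labelled libraries together. Its level there was 1.12, 0.57 and 0.90 log2 CPM, with a ratio of pooled reads of 77.8 (95% exact interval 26.3 to 380). Even so it held 0.314% of the summed per-length level of the 5 TGF-beta and activin ligands in those libraries, and Inhba held 28.4%. The sum over these 5 ligands was 133 ± 7.4 RPKM in the controls and 137 ± 6.2 in the Zfx-KO-labelled libraries (SD, n = 3 each).

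Promoters are shown for 3 members that rose or fell and whose window in RefSeq's table ends before the gene's first deposited exon: Inhbb and Eng, which rose, and Grem1, which fell. The 250 bases before the start are given from 5′ to 3′ on the gene's strand in GRCm38.p6, with capitals for GGCGCC, a GC-rich SMAD site, and for CAGAC, the minimal SMAD-binding element, on either strand. 
Inhbb, chr1:119422249-119422498, minus strand: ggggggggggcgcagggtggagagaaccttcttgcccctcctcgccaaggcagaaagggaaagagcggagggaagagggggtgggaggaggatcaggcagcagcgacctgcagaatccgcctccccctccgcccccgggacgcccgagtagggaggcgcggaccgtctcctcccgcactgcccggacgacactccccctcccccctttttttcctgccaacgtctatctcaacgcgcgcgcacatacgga
Eng, chr2:32646345-32646594, plus strand: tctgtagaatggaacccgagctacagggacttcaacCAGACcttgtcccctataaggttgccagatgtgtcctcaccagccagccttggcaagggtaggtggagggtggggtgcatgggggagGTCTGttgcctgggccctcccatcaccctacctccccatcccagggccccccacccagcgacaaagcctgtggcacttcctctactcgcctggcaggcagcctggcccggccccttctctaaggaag
Grem1, chr2:113758649-113758898, minus strand: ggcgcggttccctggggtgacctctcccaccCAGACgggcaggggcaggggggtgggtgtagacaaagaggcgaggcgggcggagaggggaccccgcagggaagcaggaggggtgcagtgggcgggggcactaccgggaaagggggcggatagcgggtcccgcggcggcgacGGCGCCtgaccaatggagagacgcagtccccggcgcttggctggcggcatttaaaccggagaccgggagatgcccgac
The window of Inhbb held neither motif, that of Eng held CAGAC at -214 and -127, and that of Grem1 held CAGAC at -219 and GGCGCC at -78, counted from the start site to the first base of the match. Of the 52 members 34 have a window in the table, and 9 of these held GGCGCC and 14 held CAGAC, against 9.59% and 42.2% of all 32851 windows. GGCGCC consists of G and C alone, and base composition was not taken into account. The median share of G and C over all windows was 52.4%, and it was 68% for Inhbb, 62.4% for Eng and 72% for Grem1. The palindrome GTCTAGAC was in 0 of the 34 and in 0.167% of all windows. A match of letters is a description and does not show that a factor binds there.

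BMP and GDF ligands were scarce apart from Gdf11. Of the 7 that passed the filter on their lower group alone, 4 (Gdf11, Bmp3, Bmp6 and Gdf5) rose and 0 fell, against 24.9% and 19.5% of all genes tested. Falls were rare among scarce genes in general, and 9 of the 11 ligands had means below 0 log2 CPM. At that level 1658 of the 7284 genes tested were higher and 266 lower. The other 4 (Bmp4, Bmp5, Gdf6 and Gdf10), higher with the Zfx-KO label, had to differ to be tested. Gdf11, a ligand related to myostatin that signals through activin receptors, held 92.5% of the summed per-length level of the 11 ligands in the controls and 87.3% in the Zfx-KO-labelled libraries. It stood at 5.62, 5.76 and 5.69 log2 CPM in the controls and at 5.92, 5.95 and 5.96 in the Zfx-KO-labelled libraries, a rise of 0.25 (limma adjusted p = 0.00627) that was 0.04 with equal medians (0.665).

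Gdf6, a BMP-like ligand of joint and skeletal patterning (chr4:9844372-9862345), had 0 reads in the controls, which allows up to 0.0708 CPM in a control library, and 135 in the Zfx-KO-labelled libraries. It was at least 40-fold higher there against 3 reads over the control group, at -1.25, 0.57 and 0.01 log2 CPM. Gdf10, also called BMP3b, had 1 read in the controls and 95 in the Zfx-KO-labelled libraries, a ratio of 86.3 (95% exact interval 15.1 to 3443). Bmp6, a BMP ligand known from iron sensing and endothelium, had 4 and 76 reads and rose by 3.43 log2 units (SE 0.42, limma adjusted p = 9.86e-05). Its exons overlap those of Txndc5 on the opposite strand, which stood at 8.57 to 8.72 log2 CPM over the 6 libraries, and counting by strand is not stated. Bmp4, a key BMP of mesoderm, had 0 control reads and 18 reads in the Zfx-KO-labelled libraries, at least 5-fold higher, and Bmp5 had 0 and 11 reads, at least 3-fold higher.

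Bmp3 and Gdf5 rose from low levels. Bmp3, whose product counters other BMPs, stood at -1.95, -0.62 and -0.56 log2 CPM in the controls and at 0.00, 1.50 and 0.66 in the Zfx-KO-labelled libraries (limma adjusted p = 0.0105). Gdf5, a cartilage growth factor gene, went from -2.75 ± 0.74 to -0.94 ± 0.78 log2 CPM (SD, n = 3, limma adjusted p = 0.0168). Calls of Bmp3, Bmp5 and Gdf5 ended with quantile normalization (adjusted p = 0.0662, 0.232 and 0.111) and without single libraries: Zfx-KO-labelled replicate 2 for Bmp3, that library or control replicate 1 or 3 for Bmp5, and control replicate 3 or Zfx-KO-labelled replicate 1 for Gdf5. They also ended without the filter on low values (limma adjusted p = 0.182, 0.188 and 0.176). Bmp2, a classical inducer of bone, stood at 1.46, 1.44 and 1.73 log2 CPM and at 1.77, 1.46 and 1.70, with a log2 difference of 0.10 (95% interval -0.27 to 0.46) that was -0.12 with equal medians. Bmp7, with 10 and 28 reads, and the stress-induced ligand gene Gdf15, with 13 and 10 reads, had log2 differences of 0.84 and -0.16 and did not pass (limma adjusted p = 0.416 and 0.863).

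Secreted antagonists changed in opposite directions. Of the 4 that passed the filter on their lower group alone, Chrd and Fstl1 rose and Grem1 and Fstl3 fell, beside 24.9% and 19.5% of all genes tested. Of the other 3, Fst and Chrdl1 were higher and Nog lower. Fst encodes follistatin, which binds activins (chr13:114452262-114458949). It had 1 read in all controls together and 404 in the Zfx-KO-labelled libraries, where it stood at 1.08, 1.80 and 1.58 log2 CPM, and the ratio of pooled reads was 367 (95% exact interval 65.5 to 14526). Chrdl1, a chordin-like BMP antagonist (chrX:143285674-143394262), had 5 control reads and 510 in the Zfx-KO-labelled libraries. Its levels were -4.45, -3.12 and -5.49 log2 CPM in the controls, the last being the floor given to 0 reads, and 2.40, 1.33 and 1.75 in the Zfx-KO-labelled libraries. The log2 difference was 6.17, or 6.79 without control replicate 2. As for Fst no test is given, because the filter was not passed on the lower group alone.

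Chrd, which encodes chordin, stood at 2.30, 2.11 and 2.24 log2 CPM in the controls and at 2.86, 3.02 and 2.82 in the Zfx-KO-labelled libraries, without overlap (rise of 0.68, limma adjusted p = 0.00102). Its exons overlap Thpo on the opposite strand, which stood at 0.74 to 1.58 log2 CPM. Fstl1, a secreted follistatin-like glycoprotein gene of mesenchymal cells, was the most abundant of the antagonist group per length, at 82.6 ± 8.1 RPKM in the controls and 125 ± 6.4 in the Zfx-KO-labelled libraries (SD, n = 3 each). It stood at 8.43, 8.14 and 8.29 log2 CPM and at 8.80, 8.92 and 8.93, a rise of 0.60 (SE 0.08, limma adjusted p = 0.00014).

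Grem1 and Fstl3 fell, and Nog was scarce. Grem1 encodes gremlin, a BMP antagonist of intestinal and tumor stroma (chr2:113746164-113758646), and stood at 4.23, 4.68 and 4.48 log2 CPM in the controls and at 3.66, 3.11 and 3.07 in the Zfx-KO-labelled libraries. The lowest control lay above the highest library labelled Zfx-KO, and Grem1 fell by 1.18 (SE 0.17, limma adjusted p = 0.000257). Fstl3, a follistatin relative that binds activins, fell by 0.25 (limma adjusted p = 0.0115) from 5.85 ± 0.08 log2 CPM (SD, n = 3), a call that ended without Zfx-KO-labelled replicate 2. That call also ended without the filter on low values and without the variance trend (limma adjusted p = 0.0703 and 0.0545). Nog, which encodes noggin, had 20 control reads and 5 in the Zfx-KO-labelled libraries, and it did not pass the filter on its lower group alone. The call of Nog ended without control replicate 1 or 3 and without Zfx-KO-labelled replicate 1 or 2. Bmp1 encodes a metalloproteinase that cleaves procollagens and chordin and is no BMP. It stood at 7.49, 7.36 and 7.55 log2 CPM in the controls and at 8.01, 8.11 and 8.12 in the Zfx-KO-labelled libraries, a rise of 0.61 (SE 0.06, limma adjusted p = 3.56e-05).

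**Figure D3:**
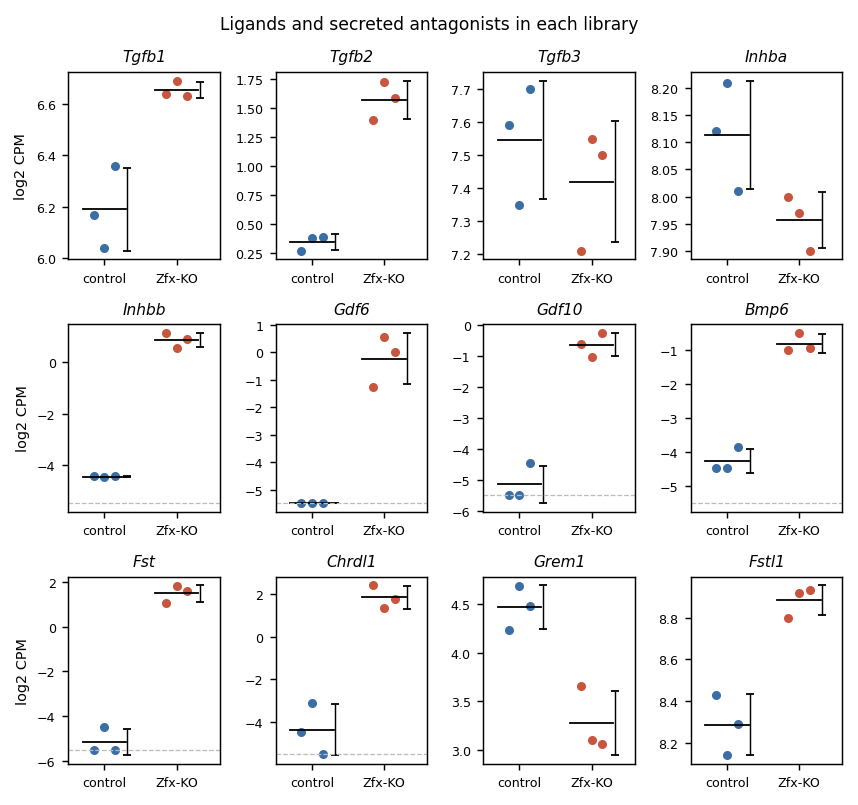
Log2 CPM in each library (points) for 12 ligands and secreted antagonists, controls in blue and libraries labelled Zfx-KO in red, with the mean (line) and SD (bar, n = 3) and the floor of 0 reads as a dashed line where values approach it. Vertical axes differ between genes: Fst, Chrdl1, Inhbb and Gdf6 span over 5 log2 units, and Tgfb1 less than 1.

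Type I receptors did not move as one, with 4 of 6 higher and 2 lower, against 24.9% and 19.5% of all genes tested. Bmpr1a (chr14:34410734-34502687), a type I receptor for BMPs, stood at 7.06, 7.13 and 6.93 log2 CPM in the controls and at 6.10, 6.15 and 5.95 in the Zfx-KO-labelled libraries. It fell by 0.97 log2 units (SE 0.07, limma adjusted p = 3.73e-06), and per length the level was 21.8 ± 1.5 and 11.1 ± 0.77 RPKM (SD, n = 3 each). Tgfbr1, the type I receptor of TGF-beta, stood at 5.58, 5.60 and 5.38 log2 CPM and at 5.21, 5.12 and 4.99, and fell by 0.41 (SE 0.08, limma adjusted p = 0.0025). Both kept a fall with equal medians and with quantile normalization, and the call of Tgfbr1 ended without the filter on low values (adjusted p = 0.0551).

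Acvrl1, the type I receptor for BMP9 in endothelium (chr15:101128522-101145336), showed the largest rise among the receptors. It stood at 1.41, 0.53 and 1.30 log2 CPM in the controls and at 3.76, 4.18 and 4.13 in the Zfx-KO-labelled libraries, a rise of 2.94 (SE 0.22, limma adjusted p = 3.9e-06). Eng, which encodes endoglin, the co-receptor that works with this receptor in endothelium (chr2:32646595-32682669), stood at 2.35, 1.38 and 2.08 log2 CPM in the controls and at 3.87, 3.84 and 3.81 in the Zfx-KO-labelled libraries (rise of 1.90, limma adjusted p = 4.57e-05). For both genes control replicate 2 was lowest, and no control reached the Zfx-KO-labelled libraries. The endothelial markers Pecam1 and Tek moved in the same libraries, Pecam1 from 4.05, 4.20 and 4.55 to 6.45, 6.81 and 6.86 log2 CPM and Tek from 3 reads to 263, both chosen after their values were seen. Ramp2, the 1 lower gene among the 12 endothelial markers, went the other way, with a log2 difference of -0.66. The part of endothelial or pericyte RNA in the rises of pathway genes was not tested, and in bulk RNA the share of such cells and the RNA each cell holds cannot be told apart. Exons of Eng overlap Fpgs on the opposite strand, which stood at 5.46 to 5.80 log2 CPM in the controls and at 5.21 to 5.43 with the Zfx-KO label.

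Acvr1, which encodes the receptor ALK2 used by BMPs and activins, was the most abundant type I receptor per length, at 34.2 ± 2.0 RPKM in the controls and 40.8 ± 1.8 in the Zfx-KO-labelled libraries (SD, n = 3 each). Acvr1 and the activin receptor gene Acvr1b rose by 0.26 and 0.39 (limma adjusted p = 0.00768 and 0.00281), calls that ended with equal medians (0.04 and 0.18). The call of Acvr1 also ended without the filter on low values and without the variance trend (limma adjusted p = 0.0668 and 0.052). Bmpr1b, with 13 and 41 reads, rose by 1.39 (limma adjusted p = 0.0234), a call that ended in 7 alternatives, 4 of which left out 1 library (control replicate 1 or 3, or Zfx-KO-labelled replicate 1 or 2). The summed per-length level of the 6 type I receptors was 69.1 ± 0.96 in the controls and 68.7 ± 1.6 in the Zfx-KO-labelled libraries, while the share of Bmpr1a in it went from 31.6% ± 2.3 to 16.2% ± 1.2 and that of Acvrl1 from 0.823% ± 0.24 to 6.26% ± 0.81 (SD, n = 3).

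Among type II receptors Tgfbr2 was higher and the receptors for activins and BMPs were lower. Tgfbr2, which binds TGF-beta first, held 70.2% ± 2.6 of the summed per-length level of the 4 type II receptors in the controls and 78.9% ± 1.7 in the Zfx-KO-labelled libraries (SD, n = 3). It stood at 8.41, 8.27 and 8.34 log2 CPM and at 8.54, 8.72 and 8.73, a rise of 0.33 (SE 0.07, limma adjusted p = 0.00301) that was 0.11 with equal medians (0.261). Without the filter on low values the call of Tgfbr2 ended too (limma adjusted p = 0.0585). Acvr2a and Acvr2b, receptors for activins, fell by 0.36 and 0.33 (limma adjusted p = 0.0152 and 0.0219), and Bmpr2, the type II receptor for BMPs, fell by 0.32 (limma adjusted p = 0.0267), with the highest library labelled Zfx-KO at 6.64 log2 CPM and the lowest control at 6.62. These calls ended without the filter on low values and without single libraries: Zfx-KO-labelled replicate 1 or 3 for Acvr2a, control replicate 1 or 3 or Zfx-KO-labelled replicate 2 or 3 for Acvr2b, and control replicate 1 or 2 or Zfx-KO-labelled replicate 1 or 3 for Bmpr2, with adjusted p up to 0.161, 0.0788 and 0.305 over all alternatives that ended them. Exons of Acvr2a overlap Orc4 on the opposite strand, which stood at 5.76 to 6.15 log2 CPM in the controls and at 5.28 to 5.40 in the Zfx-KO-labelled libraries.

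Tgfbr3 and Bambi complete the receptor layer. Tgfbr3 encodes betaglycan, which presents TGF-beta and inhibin to the signalling receptors (chr5:107106570-107289629). It stood at 7.60, 7.54 and 7.47 log2 CPM in the controls and at 6.95, 6.73 and 6.75 in the Zfx-KO-labelled libraries, and fell by 0.73 (SE 0.07, limma adjusted p = 2.13e-05). Bambi, the decoy receptor gene, stood at 0.90, 0.62 and 1.23 log2 CPM in the controls and at 2.13, 1.78 and 2.03 in the Zfx-KO-labelled libraries, a rise of 1.07 (SE 0.20, limma adjusted p = 0.00143). Betaglycan was thus the co-receptor that fell while endoglin rose, and the share of Tgfbr3 in the summed per-length level of Tgfbr3, Eng and Bambi went from 95.4% ± 1.2 to 79.4% ± 0.90 (SD, n = 3).

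**Figure D4:**
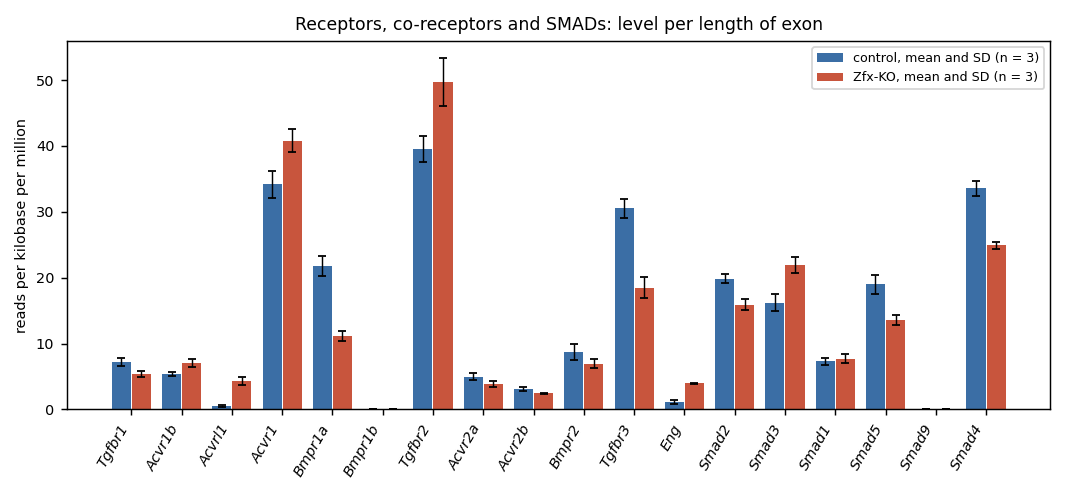
Level per length of exon, in RPKM (axis labelled in full), of type I and type II receptors, co-receptors and SMADs, with bars for the group mean and whiskers for the SD (n = 3 each). Bmpr1a, Tgfbr3, Smad4 and Smad5 are lower and Tgfbr2 and Smad3 higher in the Zfx-KO-labelled libraries, and Bmpr1b and Smad9 are close to 0 in both groups.

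Among the 5 SMADs of the signal that passed the filter on their lower group alone, 1 rose and 3 fell. Of all genes tested with a mean of at least 0 log2 CPM, 26.1% were higher and 28.6% lower. Smad3 (chr9:63646767-63757994), which acts downstream of TGF-beta and activin and binds DNA directly, stood at 6.35, 6.27 and 6.48 log2 CPM in the controls and at 6.76, 6.75 and 6.89 in the Zfx-KO-labelled libraries. It rose by 0.43 (SE 0.07, limma adjusted p = 0.000655). Smad2, activated by the same receptors, stood at 6.08, 6.10 and 6.01 log2 CPM in the controls and at 5.82, 5.71 and 5.68 in the Zfx-KO-labelled libraries, and fell by 0.32 (SE 0.06, limma adjusted p = 0.00196). Per length, Smad2 was above Smad3 in the 3 controls (19.9 ± 0.63 and 16.2 ± 1.2 RPKM, SD, n = 3) and below it in the 3 libraries labelled Zfx-KO (15.9 ± 0.84 and 21.9 ± 1.2).

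Smad4, the shared partner, stood at 6.95, 6.92 and 6.85 log2 CPM in the controls and at 6.51, 6.47 and 6.45 in the Zfx-KO-labelled libraries, and fell by 0.43 (SE 0.05, limma adjusted p = 0.000135). Smad5, of the BMP branch, stood at 7.08, 7.20 and 6.98 and at 6.60, 6.69 and 6.53, and fell by 0.48 (SE 0.07, limma adjusted p = 0.000345). Smad1, of the same branch, stood at 5.24 ± 0.10 and 5.32 ± 0.13 log2 CPM (SD, n = 3 each), with a log2 difference of 0.07 (95% interval -0.11 to 0.26, limma adjusted p = 0.51) that was -0.14 with equal medians. Smad9, the third BMP SMAD, had 3 control reads and 38 in the Zfx-KO-labelled libraries, a ratio of 11.5 (95% exact interval 3.65 to 58.2), and it passed the filter through its higher group alone and was not called without the filter (adjusted p = 0.0761). The falls of Smad2, Smad4 and Smad5 and the rise of Smad3 kept their calls in all 15 alternatives.

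The inhibitory SMADs, which are switched on by the pathway and block its receptors, did not pass the test. Smad7 stood at 4.81, 4.88 and 4.83 log2 CPM in the controls and at 4.98, 4.79 and 4.88 in the Zfx-KO-labelled libraries, and Smad6 at 2.02, 1.81 and 2.03 and at 1.80, 2.19 and 1.93. The ranges overlapped for both. Their log2 differences were 0.04 (95% interval -0.12 to 0.20, limma adjusted p = 0.671) and 0.02 (-0.32 to 0.36, limma adjusted p = 0.932), and both were below 0 with equal medians (-0.17 and -0.19), though still not called. Of the nuclear co-repressors, Ski fell by 0.29 and its relative Skil rose by 0.31 (limma adjusted p = 0.00729 and 0.0135), and the homeobox co-repressor gene Tgif1 rose by 0.26 (limma adjusted p = 0.0275). The call of Ski ended without the filter on low values (adjusted p = 0.0922) and without the variance trend (0.0535). With equal medians Skil and Tgif1 stood at 0.09 and 0.05 and lost their calls, which also ended without Zfx-KO-labelled replicate 1 or 2 for Skil and without control replicate 2 or 3 or Zfx-KO-labelled replicate 1 or 3 for Tgif1. Without the filter on low values neither was called (limma adjusted p = 0.166 for Skil and 0.223 for Tgif1).

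The ID genes, direct targets of BMP signalling whose products keep bHLH factors from binding DNA, rose in 3 of 4 cases and fell in 0. Of all genes tested 24.9% were higher and 19.5% lower. Id3 (chr4:136143497-136145392) stood at 4.58, 4.38 and 4.68 log2 CPM in the controls and at 5.86, 5.86 and 5.99 in the Zfx-KO-labelled libraries, a rise of 1.36 (SE 0.09, limma adjusted p = 1.27e-06). Id2 stood at 2.04, 1.36 and 1.57 and at 3.26, 3.02 and 3.03, a rise of 1.45 (SE 0.18, limma adjusted p = 9.71e-05), and Id1 at 1.57 ± 0.43 and 2.62 ± 0.33 (SD, n = 3 each), a rise of 1.06 (SE 0.23, limma adjusted p = 0.00404). The groups did not overlap for these 3 genes. Id4, with 24 and 59 reads, stood at -2.36 ± 0.65 and -1.16 ± 0.74 log2 CPM (SD, n = 3 each), a difference (95% interval 0.10 to 2.29) that did not pass (limma adjusted p = 0.0724), and its groups overlapped.

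Id3 made up 82.3% ± 1.8 of the summed per-length level of the 4 ID genes in the controls and 83.8% ± 1.2 in the Zfx-KO-labelled libraries, and the sum went from 22.3 ± 2.8 to 55.8 ± 3.6 RPKM (SD, n = 3 each). The call of Id1 ended without the filter on low values (adjusted p = 0.109), and those of Id2 and Id3 ended in 0 of the 15 alternatives. Endothelial and pericyte marker sums, given above, were higher there too, and endothelial cells are known to express ID genes, and the part of those cells in the rise of the ID genes was not tested.

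**Figure D5:**
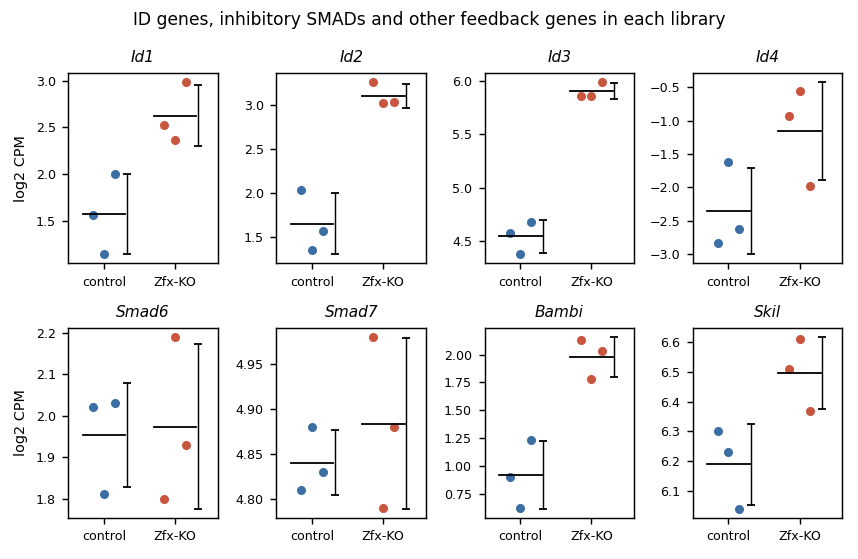
Log2 CPM in each library (points) for the ID genes, the inhibitory SMADs, Bambi and Skil, controls in blue and libraries labelled Zfx-KO in red, with the mean (line) and SD (bar, n = 3). Id1, Id2, Id3, Bambi and Skil separate the groups, and Smad6, Smad7 and Id4 do not.

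Other genes of the pathway, from a list of 72, were expressed well enough to test in 52 cases, of which 17 rose and 20 fell, against 24.9% and 19.5% of all genes tested. Among 20 intracellular regulators 1 rose and 13 fell, with a median log2 difference of -0.22. All 20 had means of at least 0 log2 CPM, where 26.1% of all genes were higher and 28.6% lower, with a median of 0.00. The falls included those of Smurf2, a ubiquitin ligase gene for receptors and SMADs, by 0.73 and Zfyve9, which encodes the SMAD anchor SARA, by 0.89 (limma adjusted p = 1.82e-05 and 1.63e-05). Other secreted antagonists had 5 rises and 1 fall in 7 tested. Nbl1, of the DAN family of BMP antagonists, rose from -2.51 ± 0.31 to 3.70 ± 0.31 log2 CPM (SD, n = 3, limma adjusted p = 7.78e-08). Bmper, a BMP-binding endothelial regulator, had 0 control reads and 582 in the Zfx-KO-labelled libraries, at least 176-fold higher when the control group is set at 3 reads.

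Genes of TGF-beta latency and activation had 7 rises and 3 falls in 13 tested, beside the same 24.9% and 19.5%. Lrrc32, which encodes the latent TGF-beta anchor GARP, stood at 0.50, 0.30 and 0.58 log2 CPM in the controls and at 3.62, 3.99 and 3.91 in the Zfx-KO-labelled libraries (limma adjusted p = 1.4e-07). The latent TGF-beta binding protein genes split: Ltbp2 rose from -2.33 ± 0.96 to 4.57 ± 0.50 log2 CPM, whereas Ltbp3 and Ltbp1 fell by 1.14 and 0.70 (limma adjusted p = 2.05e-06 and 1.32e-05). Ltbp4, the most abundant of these genes per length, stood at 115 RPKM in the controls and 134 in the Zfx-KO-labelled libraries. It rose by 0.22 (limma adjusted p = 0.0458), with overlap between the groups. Furin, the convertase gene for ligand precursors, fell by 0.84 (limma adjusted p = 6.56e-05), and Thbs1, an activator of latent TGF-beta, rose by 1.25 (limma adjusted p = 3.02e-05). The genes Smurf2, Zfyve9, Ltbp1, Ltbp2, Ltbp3, Ltbp4, Furin and Thbs1 were chosen after their values were seen.

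Genes known as targets of TGF-beta and SMAD3 had 16 rises and 2 falls in 21 tested, where 24.9% and 19.5% of all genes rose and fell, with a median log2 difference of 1.49 against 0.09. Tagln, the smooth muscle protein transgelin, stood at -2.21 ± 0.24 log2 CPM in the controls and at 4.21 ± 0.32 in the Zfx-KO-labelled libraries (SD, n = 3), and Acta2 at -0.89 ± 0.83 and 5.71 ± 0.40 (limma adjusted p = 3.82e-08 and 4.47e-07). The fibrillar collagen genes Col1a1 and Col1a2 rose by 5.66 and 8.62 (limma adjusted p = 1.23e-08 and 1.27e-08). Ctgf, a matricellular gene, rose by 5.17 (limma adjusted p = 1.49e-06), while Tgfbi, named for its induction by TGF-beta, fell by 0.44 (limma adjusted p = 0.0113) and Pmepa1, a feedback target, stood at 7.91 ± 0.14 and 7.95 ± 0.06 log2 CPM (limma adjusted p = 0.658). Ctgf, Tgfbi and Pmepa1 were chosen after their values were seen. Many of these targets are also expressed by pericytes and fibroblasts, of whose markers 10 of 10 and 8 of 10 were higher in these libraries, and the part of such cells was not tested. Acta2 is on the pericyte and smooth muscle list too, and Col1a1 and Col1a2 are on the fibroblast list. Those marker counts and sums therefore partly repeat the rises of these targets.

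Known BMP targets outside the member list had 3 rises and 4 falls in 9 tested, a share of rises near the 24.9% of all genes tested (19.5% fell). Hey1, a Notch and BMP target in endothelium, stood at -0.71, -0.57 and -0.46 log2 CPM in the controls and at 1.92, 2.33 and 2.23 in the Zfx-KO-labelled libraries (limma adjusted p = 3e-06). Msx1, a homeobox gene induced by BMPs in limb and tooth, stood at 3.77 ± 0.13 and 1.38 ± 0.18 log2 CPM (SD, n = 3 each), a fall of 2.38 (SE 0.13, limma adjusted p = 5.79e-07). Gata3 and Tbx20, transcription factor genes, fell by 1.24 and 0.72 (limma adjusted p = 0.000354 and 5.19e-05). The ID genes and Msx1 thus lay on opposite sides, with no overlap between the groups for Msx1, Id1, Id2 or Id3.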

How the data were processed

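RNA was sequenced from sorted tumor cells in 6 libraries, 3 control and 3 labelled Zfx-KO, grouped by the genotype label, with replicates numbered in record order. The authors deposited 1 table of log2 values for 52636 genes, with a floor of -5.48715 for genes without reads. Per the submitters' processing notes the builds were GRCh38 and mm10, and which aligner or counter was used was not stated there or in the other sources used here. Values were read as log2 CPM with a prior of 1 read, and under this reading 100% of values below 2000 reads came out whole within 0.05 reads, which gave the read counts. The exonic length in the deposited table gave levels per length (RPKM). Chromosomes came from GENCODE M21, in which 99.7% of gene identifiers were found.

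A gene was tested when it exceeded the floor in 3 or more libraries and its mean lay 1 log2 unit or more above it; the test was run with limma 3.58.1 in R 4.3.3, two-sided, and differences are on this log2 scale, which understates changes of scarce genes. The test was checked on simulated data. Exact intervals and lower bounds take in counting error alone. How reads shared between gene copies were counted is not stated. Alternatives were no filter and a stricter one, equal medians, quantile normalization, 2 other pseudocounts, 2 other variance settings, limma voom on the recovered reads, and leaving out each library. The members, the lists, the tests and the rule for named genes (all members, Zfx, and the 4 smallest p of each other list) were chosen with earlier results of these data known; some genes that the rule or lists hold are not reported here by name, and 1 marker with a repeated symbol, Itgam, was left out. Pairs of libraries of a group were compared by chi-square, at 13.2 to 25.4 per gene, so none was a copy of another. Tables used pandas 2.3.3, numpy 2.4.6 and Python 3.11.15, intervals scipy 1.17.1 and plots matplotlib 3.10.9. No columns of other samples were found.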

Additional observations from a re-analysis of the deposited data

How the results depend on the processing

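Of the 43 called members, 20 kept their call and direction in all 15 alternatives, 3 (Bmp6, Gdf6 and Gdf10) kept it in the others but were not tested with the stricter filter, which left out 9 members, and 20 lost the call in at least 1, of which 11 lost it without 1 library and 18 without the filter on low values; the cause was not tested. Without the filter the members called higher and lower numbered 19 and 6, and 3076 of all genes were higher. With equal medians 3224 of all genes were higher and 6357 lower, against 5003 and 3924 as deposited, because every difference falls by 0.21 on the log2 scale. Limma voom on the recovered reads called 29 members higher and 13 lower, and quantile normalization 26 and 12. Without 1 library 26 to 30 members were higher and 10 to 12 lower. Among members that were not called, direction changed with equal medians for Bmp2 (-0.12), Smad1 (-0.14), Smad6 (-0.19) and Smad7 (-0.17) and with quantile normalization for Bmp2 (-0.27) and Smad6 (-0.28). Without 1 library the log2 differences ran from -0.75 to 0.35 for Gdf15, -0.002 to 0.13 for Smad1, -0.09 to 0.10 for Smad6 and -0.0046 to 0.09 for Smad7. No paired analysis was possible because the labels give no replicate numbers. Genes with under 3 reads in a library, at 0.0461 to 0.0794 CPM, were at the limit of depth.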

Other observations

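Ratios of pathway genes within a library do not depend on the scaling between libraries. For 10 ratios, chosen after the levels were seen, the groups did not overlap in 9. Pairs such as Tgfbr2 over Tgfbr1, Smad3 over Smad2, Smad3 over Smad4 and Acvr1 over Bmpr1a set a gene called higher over one called lower. Their separation followed from the choice, so the count and the p-values below are descriptions and no support. Single genes did not overlap in 54.1% of all genes tested, and the share over other ratios was not computed. Tgfbr2 over Tgfbr1, as a log2 ratio per length, stood at 2.48, 2.31 and 2.61 in the controls and at 2.98, 3.25 and 3.39 in the Zfx-KO-labelled libraries. Smad3 over Smad2 stood at -0.33, -0.43 and -0.13 and at 0.34, 0.44 and 0.61, and Smad3 over Smad4 at -1.05 ± 0.15 and -0.19 ± 0.10 (SD, n = 3 each). Acvr1 over Bmpr1a stood at 0.65 ± 0.18 and 1.88 ± 0.16, Tgfbr3 over Tgfbr2 at -0.37 ± 0.07 and -1.43 ± 0.23, and Tgfb1 over Tgfb3 at -0.72 ± 0.05 and -0.13 ± 0.17. Inhba over the activin antagonist gene Fstl3 did overlap, with 0.55 ± 0.18 and 0.65 ± 0.12. By exact permutation, two-sided, p was 0.1 for each of the 9 ratios without overlap, the smallest value that 3 against 3 libraries allow (0.111 after Benjamini-Hochberg adjustment over the 10), and it was 0.6 for Inhba over Fstl3.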
